A study of Mus musculus with 14 samples.

Results

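The genes examined here are 10 genes of astrocytes and of radial glia, the neural stem cells of the embryo that give rise to both neurons and astrocytes. They are Hes1, Hes5, Etv5, Sox9, Id1, Id3, Gfap, Aqp4, Slc1a3 and S100b, chosen by name. A peak was counted for a gene if it overlapped the gene body or the 20 kb on either side of it. Of the 23668 peaks in the authors' table, 7 met this rule, and they lay at 5 of the 10 genes. The table comes from H3K27me3 ChIP-seq of wild-type mouse primary hippocampal neurons. These neurons received lipid nanoparticles with either a negative control gapmer (Control) or a gapmer against the long noncoding RNA NeuID (NeuID knockdown). The labels list 6 ChIP libraries in each group, but the overall mean in the table weights fewer knockdown than control libraries. Gapmers are antisense oligonucleotides that lead RNase H to cut the RNA they pair with. The cultures came from hippocampi of CD1 mouse embryos of mixed sex, and such cultures can hold glial cells beside neurons. Because the ChIP used whole cultures, a change in the share of a cell type and a change of the mark per cell cannot be told apart.

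H3K27me3 is the trimethylation of lysine 27 on histone H3. Polycomb repressive complex 2 writes this mark through its subunit EZH2, and the mark is known for keeping developmental and lineage genes silent in cells that should not express them. The 10 genes act at different steps. Hes1 and Hes5 encode repressors that Notch signalling switches on to hold radial glia undifferentiated. Etv5 encodes an ETS transcription factor downstream of FGF signalling. Id1 and Id3, induced by BMP signalling, encode proteins that capture basic helix-loop-helix factors and keep them off DNA. Sox9 encodes a transcription factor that glia require. Gfap, Aqp4, Slc1a3 and S100b encode the intermediate filament, the water channel, a glutamate transporter and a calcium-binding protein of astrocytes.

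To show what lies under the peaks, the sequences of 4 of them are given on the plus strand of mm10 (GRCm38), with CpG dinucleotides in capitals. The Hes1 peak was listed at 0 after knockdown, and the Hes5 peak had the lowest difference among peaks with both groups above 0. The Id3 peak was the one within 1 kb of a gene start, and the Gfap peak had the highest difference. The Hes1 and Id3 peaks are shown whole (chr16:30068225-30068468 and chr4:136144029-136144323). The others are the central 300 bases, for Hes5 chr4:154948531-154948830 and for Gfap chr11:102891649-102891948.
Hes1: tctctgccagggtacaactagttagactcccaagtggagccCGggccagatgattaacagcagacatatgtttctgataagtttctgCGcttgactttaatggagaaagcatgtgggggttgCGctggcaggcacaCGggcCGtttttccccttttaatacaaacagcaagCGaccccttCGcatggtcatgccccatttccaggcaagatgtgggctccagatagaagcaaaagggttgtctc
Hes5: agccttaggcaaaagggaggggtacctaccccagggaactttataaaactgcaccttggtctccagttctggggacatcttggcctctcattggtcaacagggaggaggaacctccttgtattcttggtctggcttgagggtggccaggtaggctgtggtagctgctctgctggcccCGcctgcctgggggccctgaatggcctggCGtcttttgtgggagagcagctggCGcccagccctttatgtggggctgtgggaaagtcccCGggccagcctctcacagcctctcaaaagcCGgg
Id3: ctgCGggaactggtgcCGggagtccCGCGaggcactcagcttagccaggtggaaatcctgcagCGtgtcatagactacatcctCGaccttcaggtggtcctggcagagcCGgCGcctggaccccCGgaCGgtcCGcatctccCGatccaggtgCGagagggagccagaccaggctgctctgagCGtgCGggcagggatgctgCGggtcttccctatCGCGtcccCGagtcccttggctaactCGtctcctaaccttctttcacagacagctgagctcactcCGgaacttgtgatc
Gfap: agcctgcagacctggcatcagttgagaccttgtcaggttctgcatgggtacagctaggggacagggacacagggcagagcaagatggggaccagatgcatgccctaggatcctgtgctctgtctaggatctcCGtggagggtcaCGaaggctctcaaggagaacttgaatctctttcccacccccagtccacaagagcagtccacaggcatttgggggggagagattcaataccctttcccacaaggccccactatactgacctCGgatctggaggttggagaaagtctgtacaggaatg
The Id3 stretch held 21 CpG dinucleotides, the Hes1 peak 7, the Hes5 stretch 5 and the Gfap stretch 3.

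Across the 7 peaks, H3K27me3 was lower in NeuID knockdown than in Control at 5 peaks and higher at 2. All of these differences exceeded 0.5 on the log2 scale used below. Of all listed peaks, 33.3% were lower and 32.2% higher by more than 0.5. The authors deposited means per group and no values per library, so neither an SD nor a test accompanies any value below, and whether a difference exceeds the spread between replicates is unknown. Values are the log2 of the mean number of normalized reads in a peak. A peak was called lower or higher when the knockdown mean differed from the control mean by more than 1 on this log2 scale. By this limit 4 of the 7 peaks were lower and 1 was higher, against 20.6% lower and 20.4% higher over all listed peaks. Among the 17471 listed peaks whose overall mean lay in the range of these 7 peaks, 22.5% were lower and 20.7% higher. The 4 lower peaks belonged to Hes1, Hes5 and Etv5, and the study itself selected Hes1 and Etv5 on these libraries, so their direction is not independent evidence. Without those genes, 2 of 5 peaks were lower and 1 was higher.

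**Figure D1:**
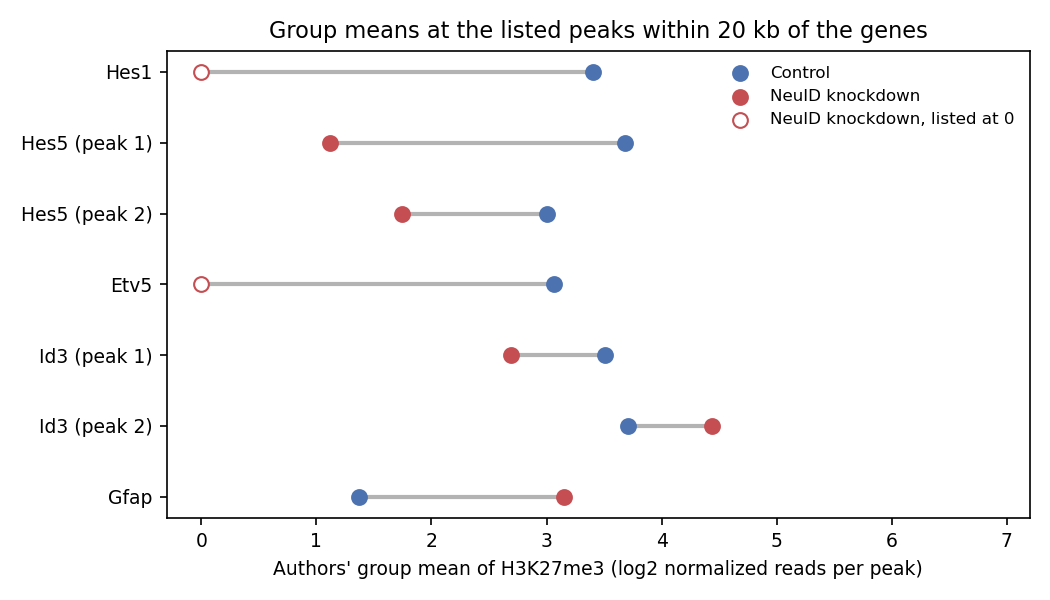
Authors' group means of H3K27me3 at the 7 listed peaks within 20 kb of the genes, on a log2 scale of normalized reads per peak (horizontal axis), for Control (blue) and NeuID knockdown (red). An open circle marks a knockdown mean listed at 0, which was the case at Hes1 and Etv5. The red point lies left of the blue one at 5 peaks and right of it at the second Id3 peak and at Gfap.

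The Notch effector genes were examined first. Hes1 (chromosome 16, 30064384 to 30067796, plus strand) had 1 peak, 244 bp wide (30068225 to 30068468). It began 429 bp beyond the annotated end of the gene and 3841 bp from the gene start, outside any annotated gene. The authors' mean was 3.41 in Control, or 10.6 normalized reads, and was listed at 0 in NeuID knockdown. A value of 0 is the lowest in the table and stands for a mean of at most 1 read. Solving the overall mean of 2.53 for the knockdown share returned 0 reads. Of all listed peaks, 3.35% were listed at 0 in the knockdown.

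Hes5 (chromosome 4, 154960923 to 154962371, plus strand) had a pair of peaks, both upstream and both lower after knockdown. The distal one, 517 bp wide (154948423 to 154948939), lay 11984 bp from the gene start. Its mean was 3.68 in Control and 1.12 in NeuID knockdown, a difference of -2.56 or 5.92-fold lower, and 5.62% of all listed peaks had a lower difference. The proximal peak, 269 bp wide (154954720 to 154954988), lay 5935 bp upstream. There the means were 3.01 and 1.75, a difference of -1.26 or 2.40-fold lower. Summed over both peaks, which cover 786 bp, Control had 20.9 normalized reads and NeuID knockdown 5.53. Neither peak overlapped an annotated gene, and Hes5 was the nearest gene start of both, although Pank4 also lies in the window. The 3 peaks of these Notch effector genes were all lower by more than 1, as were 20.6% of all listed peaks. A pair of them belongs to Hes5. The study selected Hes1 on these libraries, so the direction at Hes1 is not independent evidence.

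Etv5 (chromosome 16, 22381309 to 22439719, minus strand) had 1 peak of 316 bp (22443917 to 22444232), 4198 bp upstream of the gene start. The authors' mean was 3.06 in Control, or 8.35 normalized reads, and 0 in NeuID knockdown. Here the overall mean of 2.26 returned 0.519 reads for the knockdown. This was the weakest of the 7 peaks by overall mean. Repeat-masked sequence made up 24.4% of it, against a median of 10.7% over all peaks.

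Id3 had a pair of peaks inside its gene body, and they went in opposite directions. Id3 (chromosome 4, 136143497 to 136145755, plus strand) had a 295 bp peak (136144029 to 136144323) that began 532 bp after the gene start and covered 180 bp of coding exon and 115 bp of intron. The mean was 3.51 in Control and 2.69 in NeuID knockdown, a difference of -0.82. The next peak, 794 bp wide (136144579 to 136145372), began 255 bp farther on. It covered 631 bp of annotated exon, 493 bp of it untranslated sequence of coding transcripts, and 163 bp of intron. An annotated Id3 transcript also starts within it, whereas the first peak lay 165 bp from the nearest transcript start. The mean of this second peak was 3.71 in Control and 4.44 in NeuID knockdown, a difference of 0.73. Neither passed the limit of 1. Over both peaks, 1089 bp in all, there were 24.5 normalized reads in Control and 28.1 in NeuID knockdown. Adjacent peaks with a gap under 1 kb had opposite signs in 47.0% of 4364 pairs in the whole table. The Id3 peaks differed from each other by 1.54, more than 71.2% of those pairs.

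Gfap was the gene whose peak was higher after knockdown. Gfap (chromosome 11, 102887336 to 102900912, minus strand) had 1 peak of 414 bp (102891592 to 102892005) inside the gene, 8907 bp from its start. It covered 44 bp of coding exon and 370 bp of intron, and it overlapped the noncoding gene Gm26668. The mean was 1.37 in Control and 3.15 in NeuID knockdown, a difference of 1.78 or 3.43-fold higher. In reads these means were 2.59 and 8.89. The nearest gene start was not that of Gfap but of Fam187a, which lies in the same window, so the assignment to Gfap rests on position within the gene body.

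**Figure D2:**
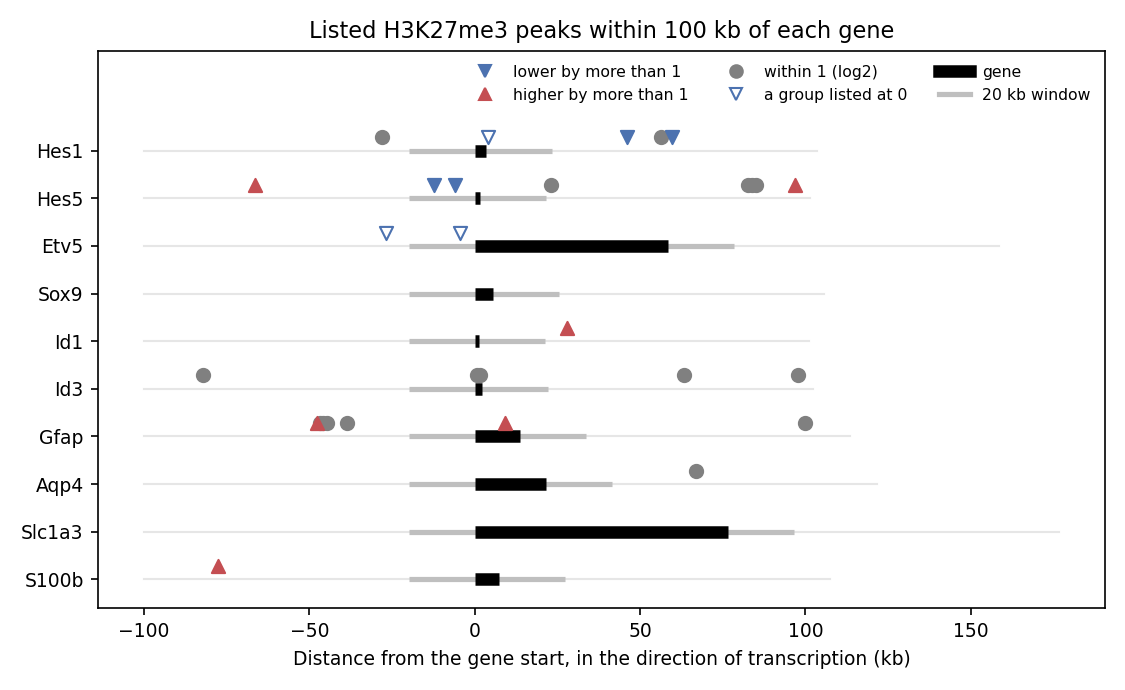
Position of listed H3K27me3 peaks along each of the 10 genes, as distance from the gene start in kb, with transcription running to the right. Black bars are genes, grey bars the windows of 20 kb, and symbols mark peaks lower (down), higher (up) or within 1 log2 unit (circles), open where a group was listed at 0. Sox9 and Slc1a3 have no symbol within 100 kb, and the symbols of Hes1, Hes5 and Etv5 inside the window all point down.

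The other genes of the list, Sox9, Id1, Aqp4, Slc1a3 and S100b, had no listed peak in their windows. Peaks within 20 kb were found at 42.4% of 21755 protein-coding genes, so 5 of 10 is close to that share. A region without a listed peak did not reach the authors' final set, at a step that is not known. This does not show that the mark is absent there. The nearest listed peak to Slc1a3 (chromosome 15, 8634124 to 8710764) was 761929 bp away, farther than for 97.4% of protein-coding genes. For Sox9 (chromosome 11, 112782224 to 112787760) the distance was 117024 bp, and for S100b (chromosome 10, 76253853 to 76261159) it was 77350 bp. Aqp4 (chromosome 18, 15389496 to 15410982) and Id1 (chromosome 2, 152736251 to 152737410) were closer to a peak, at 45063 bp and 26669 bp. The peak nearest to Id1 had a mean of 1.20 in Control and 2.67 in NeuID knockdown, and the one nearest to Sox9 had 2.09 and 3.84. The means at the peak nearest to S100b were 2.57 and 3.77. None of these distant peaks had the named gene as its nearest gene start.

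Most promoters of these genes had no listed peak. Taking 1 kb on either side of the gene start, 1 of the 10 genes, Id3, had a promoter peak, against 9.86% of protein-coding genes. The same question was asked of cell type markers. Of 7 astrocyte markers (Gfap, Aqp4, Slc1a3, S100b, Aldh1l1, Slc1a2 and Gja1) and of 6 radial glia markers (Hes1, Hes5, Sox9, Nes, Fabp7 and Vim), 0 had a promoter peak. These counts depend on the markers chosen. In the longer lists of related genes described below, 1 of 19 other astrocyte genes (Gjb6) and 1 of 14 other radial glia genes (Pax6) had one. Among 10 neuron markers 1 had one, Syt1, whose means were 2.06 in Control and 2.39 in NeuID knockdown. A promoter peak was listed for 4 of 8 oligodendrocyte lineage markers (Olig1, Olig2, Sox10 and Pdgfra). The same held for 3 of 5 endothelial markers (Cldn5, Kdr and Flt1) and 1 of 6 microglial markers (Itgam). The Pdgfra promoter peak had means of 5.42 and 5.48, and that of Cldn5 5.91 and 6.04. The Itgam peak had a mean of 2.90 in Control and was listed at 0 in NeuID knockdown. Summed over promoter peaks, the oligodendrocyte lineage markers had 166 normalized reads in Control and 205 in NeuID knockdown over 7928 bp. Olig1 made up the excess, with 15.2 and 65.4 reads, and without it the sums were 151 and 139. The endothelial markers had 214 and 207 over 7544 bp. The part of other cell types in the values of the glial genes was not tested, and the RNA that would show the knockdown of NeuID was not measured in this assay.

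The width and strength of the glial genes' peaks were set beside those of all listed peaks. Their widths ran from 244 to 794 bp with a median of 316 bp, against 426 bp over all listed peaks, and 5 of 7 were narrower than that. The authors' overall means ran from 2.26 to 4.09, and 4 of 7 were below the median of 2.93. A median has about as many listed peaks below it as above, so such counts among 7 peaks do not set them apart. Per length, 4 of 7 peaks (Hes1, the proximal Hes5 peak and both Id3 peaks) were denser by overall mean than the median listed peak, which had 18.1 normalized reads per kb. The first Id3 peak reached 31.0 reads per kb, more than 96.2% of listed peaks. At Hes1 the density was 43.5 reads per kb in Control, whereas the Gfap peak had 6.25 reads per kb in Control and 21.5 in NeuID knockdown. The Id3 density was 38.5 in Control and 21.9 in NeuID knockdown for the first peak, and 16.5 and 27.3 for the second. How often a listed peak passed the limit varied with its strength. In the weakest of 5 equal bins of overall mean, 22.3% of all peaks were lower and 33.3% higher, and in the strongest bin these shares were 11.6% and 7.01%. Of the 7 peaks, 1 lay in the strongest bin, the second Id3 peak. The 4 lower peaks and the higher peak all had overall means below 3.

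**Figure D3:**
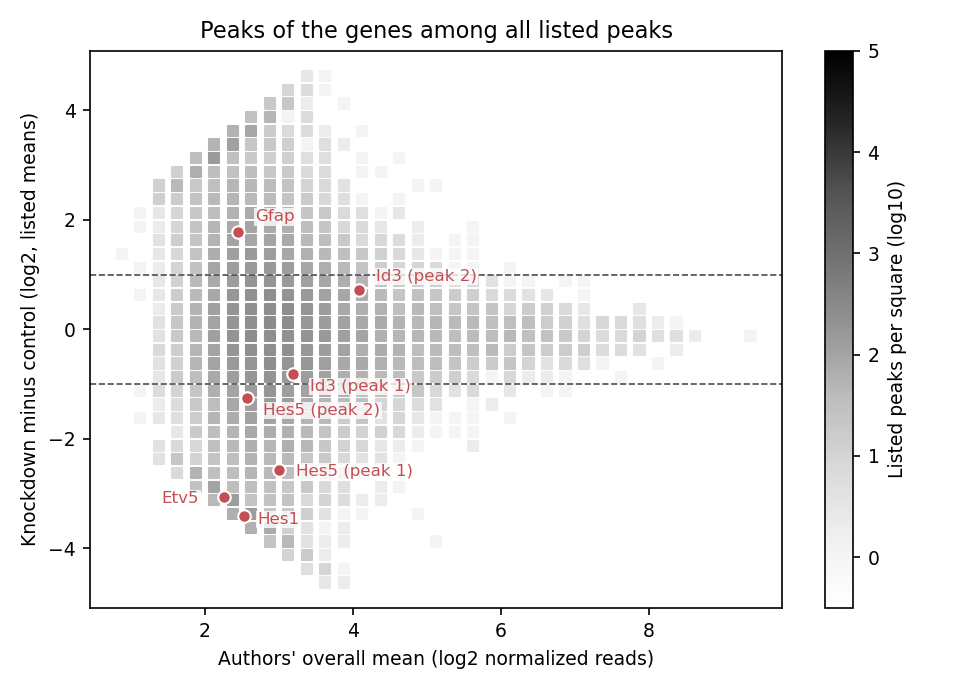
Difference between the group means (knockdown minus control, log2, vertical axis) against the authors' overall mean (log2 normalized reads, horizontal axis). Grey squares count all 23668 listed peaks and red points are the 7 peaks of the genes, with the limit of 1 dashed. Hes1 and Etv5 sit on the lower edge, where the knockdown is listed at 0, and the wide spread of grey squares narrows toward strong peaks.

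The CpG ratio was highest in the Id3 peaks. The ratio of observed to expected CpG was 0.718 and 0.565 in the Id3 peaks, higher than in 96.0% and 89.7% of listed peaks. At Hes1 it was 0.445, and at Hes5, Etv5 and Gfap it ran from 0.102 to 0.208, against a median of 0.218 over all peaks. GC content was above the median of 49.2% in 6 of 7 peaks. It was 61.1% and 59.9% in the Hes5 peaks and 63.1% and 56.7% in the Id3 peaks, and it was lowest at Etv5, 48.7%.

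Short motifs tied to these pathways were then searched on both strands of the printed stretches and of the proximal Hes5 peak. CACGTG is an E-box, a site of basic helix-loop-helix factors. The N-box CACNAG is bound by Hes proteins, CCAAT by the factor NF-Y, and GGAAGT holds the core that ETS factors such as Etv5 recognise. Motif counts of the Etv5 peak are not reported here, so the counts below say nothing of it. CACGTG was in none of the stretches searched, and 4.67% of listed peaks at least 300 bp wide had it in their central 300 bases. CACNAG was found in the proximal Hes5 peak and at 2 positions each in Id3 (10 and 287) and Gfap (190 and 241). Outside the stretches, the whole distal Hes5 peak held 1 match of CACNAG and the second Id3 peak held 2. CACNAG was present in the central 300 bases of 45.7% of the same set of peaks, and in 42.2% and 45.2% of peaks trimmed to the 269 and 295 bases of the proximal Hes5 and the Id3 peak. CCAAT was found in the Hes5 stretch, at position 90 on the opposite strand, and in 33.1% of the set. GGAAGT was in none of the stretches, although the whole 517 bp Hes5 peak held 1 match, and in 17.6% of the set. No match in the stretches overlapped another. The Hes1 peak held none of the 4 motifs. These are matches of letters and not measured binding sites.

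**Figure D4:**
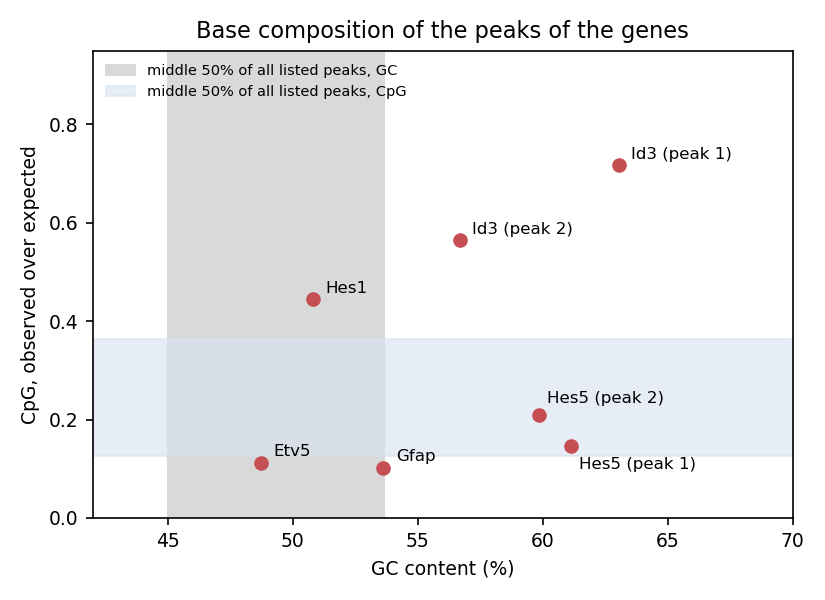
GC content (horizontal axis, %) and the ratio of observed to expected CpG (vertical axis) of the 7 peaks. Shaded bands span the interquartile range of all listed peaks. The Id3 peaks lie above the CpG band and to the right of the GC band, and Etv5 and Gfap lie below the CpG band.

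Gene windows were compared with those of other genes, counting a gene as lower only if every peak in its window was lower by more than 1. Hes1, Hes5 and Etv5 met this, or 3 of the 5 genes with a peak, and Gfap was higher in the same sense. The study selected Hes1 and Etv5 on these libraries, so their part in this count is not independent evidence. Among 9216 protein-coding genes with a peak in the window, 10.5% were lower and 13.6% higher throughout. Of those 9216 genes 48.3% had 1 peak, as Hes1, Etv5 and Gfap did. A gene with 1 peak meets the rule through that peak alone, and of all listed peaks 20.6% were lower and 20.4% higher. Summed over the 7 peaks, which cover 2849 bp, Control had 66.9 normalized reads and NeuID knockdown at most 44.5. At the 5 peaks with both groups above 0 the sums were 47.9 and 42.5, or 88.7% of the control. At the 2 peaks whose overall mean reached 3, both in Id3, the sum was higher in NeuID knockdown (28.1) than in Control (24.5).

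The same windows and limit were applied to related genes. The Notch list (26 receptors, ligands, modifiers and other Hes and Hey genes) had 52 peaks at 18 genes, of which 7 were lower and 13 higher, with a median difference of 0.34. The direction seen at Hes1 and Hes5 was thus not that of the median of this list. The lowest value with both groups above 0 and an overall mean of at least 3 was at Hey2, another Notch-induced repressor, with 3.80 in Control and 1.14 in NeuID knockdown. The highest was in the window of the receptor gene Notch3, with 2.27 and 4.00. Hes3 had the most peaks, 10, with 1 lower and 3 higher. The promoter of Heyl, also a target of Notch, had means of 3.54 and 4.77.

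The list of BMP receptors, SMADs and the other Id genes had 9 peaks at 6 of 12 genes, 2 lower and 2 higher, with a median difference of -0.03. Smad6, which encodes an inhibitory SMAD, had the most peaks with 3, and its promoter had means of 3.69 and 4.59. In the window of Smad5 the means were 6.11 and 5.71, at a peak nearest to the start of Gm45623. The list of FGF receptors, ERK feedback inhibitors and relatives of Etv5 had 91 peaks, 19 lower and 20 higher, but 85 of them lay in the window of Fgfr2, whose gene model spans 2960900 bp in the annotation. Without Fgfr2 there were 6 peaks, 2 lower and 1 higher. Differences in the Fgfr2 window ran from -3.77 to 2.25 among peaks with both groups above 0 and an overall mean of at least 3.

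Other astrocyte genes had 12 peaks at 6 of 19 genes, of which 0 were lower and 3 higher, with a median difference of 0.42. Gjb6, a gap junction gene of astrocytes, had the most peaks with 5. By the same filter its window held the highest value, 2.72 in Control and 4.34 in NeuID knockdown, at a peak nearest to the start of Gjb2. Gja1, the main connexin of astrocytes, had the lowest, 3.39 and 3.64. Other radial glia genes had 31 peaks at 9 of 14 genes, 6 lower and 9 higher, with a median of 0.37. Sox1 had the most peaks with 10. By the same filter its window held the lowest value, 5.07 in Control and 2.69 in NeuID knockdown, at a peak nearest to the start of Sox1ot. Pax6 had the highest value, 3.50 and 4.64. Over all listed peaks the median difference was -0.02, with quartiles of -0.80 and 0.77. Over the 7 peaks of the 10 genes the median was -1.26 with values of 0 taken as listed, and -0.82 at the 5 peaks with both groups above 0.

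**Figure D5:**
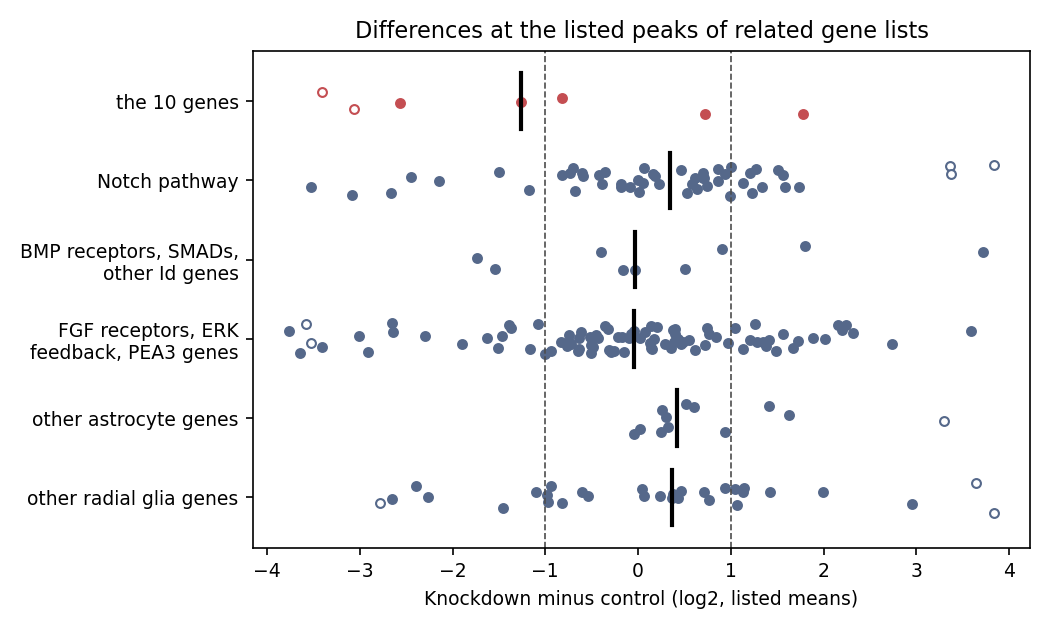
Difference between the group means (knockdown minus control, log2) for each listed peak in the windows of the 10 genes and of 5 related lists. Each point is a peak, open where a group was listed at 0, the black bar is the median of the listed values, and dashed lines mark the limit of 1. The median is -1.26 for the 10 genes and 0.42 for other astrocyte genes, and the points of the Notch, FGF and radial glia lists spread past the limit on both sides.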

How the data were processed

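Groups were taken from the sample titles. According to the methods of the study, single-end reads were mapped to mm10 with bowtie2, broad peaks were called with MACS2 and libraries were compared in DiffBind. The table the authors deposited gives, for every peak, log2 values of the mean normalized reads in all libraries, in Control and in NeuID knockdown. The normalization, the handling of duplicate reads and input, and the merging of peaks are not given in the sources used here. Such choices could change the values of weak peaks most, including those listed at 0. The deposited table also holds the authors' log2 fold changes, p-values and FDR, which were not used. The number of unused per-sample columns was 0. Depth per library is unknown, and the 2 input libraries were not analysed here.

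The overall mean weighted the control mean by 0.545, the share of 6 control libraries among 11, although the labels list 12 ChIP libraries. The paper gives fewer ChIP-seq replicates per group than the labels do. The unlisted mean of a group at 0 was solved from this weight.

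Gene bodies came from GENCODE M21 (GRCm38, the assembly of mm10), and sequence and repeat masking from the RefSeq copy of that assembly, for 23642 peaks. A peak was assigned by an overlap of at least 1 bp. No statistical test was run, because values are group means. The genes, lists, limit and motifs were chosen with earlier results of these data known. Named peaks were all those of the 10 genes, and in each related list the lowest and highest difference (both groups above 0, overall mean of at least 3) and the gene with the most peaks. The promoters of Heyl, Itgam, Pdgfra, Cldn5 and Syt1 and the Hes5 and Gfap sequences were chosen after their values were seen. The sequence of the Etv5 peak is not reported here. Window, distance, call and motif functions were tested on simulated data. Python 3.11.15, numpy 2.4.6, pandas 2.3.3 and matplotlib 3.10.9 were used. Windows of 5 and 50 kb, filters, other limits, centring and nearest-gene assignment were tried as alternatives.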

Additional observations from a re-analysis of the deposited data

How the results depend on the processing

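No paired analysis was possible because only group means are listed, and leaving out single libraries could not be done either. The main counts were 7 peaks, 4 lower and 1 higher, with a median of -1.26. A window of 5 kb left 2 lower peaks and a median of -0.82, because both Hes5 peaks fall outside it. A window of 50 kb gave 18 peaks, 3 of them higher, and a median of -0.0286, because it adds 11 peaks of which 2 were lower and 2 higher. Requiring the member to be the nearest protein-coding gene start left 0 higher peaks and a median of -1.91, since the Gfap peak is dropped. With both groups above 0, 2 peaks were lower and the median was -0.82. Leaving out Hes1 and Etv5, a setting added after seeing the data, keeps the same peaks and so repeats these values. Raising the smallest overall mean to 3 left 2 peaks, both at Id3, with 0 lower, 0 higher and a median of -0.0453. A limit of 0.5 gave 5 lower and 2 higher peaks, against 33.3% and 32.2% of all listed peaks, and a limit of 2 gave 3 and 0, against 8.61% and 8.45%. Centring on the median of all peaks left the counts at 4 and 1. The log2 ratio of summed reads was -0.59 with values of 0 counted as 1 read. It was -0.17 with both groups above 0, which are the same peaks as without Hes1 and Etv5. The mean of the log2 differences was -1.23. With the smallest overall mean at 3, also added after seeing the data for this ratio, its sign turned to 0.20. None of the settings run for the median turned its sign. With the window of 50 kb and with the smallest overall mean at 3, however, it was close to the median of all listed peaks. Depth per library is unknown, so its limit on these weak peaks cannot be given.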

Other observations

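Outside the windows used above, further peaks lay within 100 kb of 8 of the 10 genes, all but Sox9 and Slc1a3. Upstream of Etv5, another peak of 231 bp lay 26696 bp from the gene start, with Etv5 as its nearest gene start. Its mean was 2.88 in Control and it was listed at 0 in NeuID knockdown, as was the peak closer to the gene. These were the 2 listed peaks within 100 kb of Etv5. The study selected Etv5 on these libraries, and 3.35% of all listed peaks were listed at 0 in the knockdown.

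Within 100 kb of Hes1 there were 5 peaks, 3 lower and 0 higher by more than 1, against 20.6% and 20.4% of all listed peaks. The 3 lower peaks include the peak described above, at a gene that the study selected on these libraries. At 45892 bp from the gene start the means were 3.04 in Control and 1.64 in NeuID knockdown, and at 59527 bp they were 3.15 and 1.18. The peak between them, at 56151 bp, had 3.75 and 3.99, and the peak 27777 bp upstream of Hes1 had 2.72 and 2.68. The nearest gene starts of these 4 peaks were those of other genes.

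Within 100 kb of Hes5 there were 8 peaks, 2 lower and 2 higher by more than 1, against 20.6% and 20.4% of all listed peaks. Their median difference was 0.28, whereas the median was -1.91 for the pair in the Hes5 window. The lower peaks were the pair described above. The higher ones, nearest to Fam213b and Plch2, had means of 0.51 and 3.03, and of 1.69 and 3.01. Id3 had 5 peaks within 100 kb, 0 of them lower or higher by more than 1, beside the same shares of all listed peaks.

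Upstream of Gfap, at 38389 to 47442 bp from its start, 5 peaks lay nearest to C1ql1, which encodes a secreted complement-related protein. The widest, 2005 bp, had means of 4.95 in Control and 5.22 in NeuID knockdown, and the farthest had 2.27 and 3.96. The peak closest to Gfap was lower in NeuID knockdown, with 3.30 and 2.39. At 45851 bp the means were 3.21 and 3.24, and at 46583 bp they were 3.23 and 4.13.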
